A study of Rattus norvegicus with 110 samples.

Results

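Liver RNA was compared between 7 male F2 rats given the high dose of carbon tetrachloride (CCl4) and 7 males given olive oil alone, all from the lineage in which neither the F0 grandsire nor the F1 sire had been treated (cohort A). These 14 libraries were taken by their animal numbers, group 13 for the high dose and group 11 for the vehicle, out of 83 liver libraries in 12 groups and 110 samples in the whole series. High-dose males received 50% (v/v) CCl4 in olive oil and vehicle males olive oil alone, by oral gavage at 0.5 mL/kg, 3 times per week. RNA came from the left lateral lobe taken after 39 days, a day after the last dose by the study's methods. A further 7 F2 males of cohort A, group 12, received 8% CCl4 (low dose), and their levels are given beside the others without a test. The study states that the sequenced males were drawn at random from those dosed, and the labels give the same 7 animal numbers in groups 11, 12 and 13. The rats were outbred Sprague Dawley males without genetic modification, the dams were untreated, and the labels give no age. Within each group every library was a separate animal, and 5 of the vehicle males had a littermate in the high-dose group. Cohorts B, C and D had the same 3 F2 doses but a treated F1 sire, a treated F0 grandsire, or both, and served here as other animals in which the same dose effect was measured.

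CCl4 is a classical liver toxicant. It is converted to a reactive radical by cytochrome P450 enzymes, mainly in the hepatocytes around the central vein, and these cells die. Repeated dosing causes cycles of necrosis, inflammation, regeneration and scarring, in which activated stellate cells deposit collagen while surviving hepatocytes divide. Hepatocytes fill most of the liver mass and devote a large part of their mRNA to secreted plasma proteins and to metabolic enzymes. In bulk tissue, fewer cells of a type and less RNA per cell cannot be told apart.

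The deposited values are estimated counts per Ensembl gene, not normalized. A library of the 2 groups held between 34935482 and 50930971 counts, the largest being high-dose male 10, and no 2 libraries were identical. Levels below are normalized counts, that is counts scaled with edgeR's TMM factors to a common library size. Pairs of vehicle males correlated in log2 normalized counts with r from 0.952 up (median 0.968, 21 pairs), and pairs of high-dose males with r from 0.904 up (median 0.949, 21 pairs). The test was the quasi-likelihood test of edgeR, fitted to all 12 liver groups at once, and a gene is called where its Benjamini-Hochberg adjusted p was under 0.1 and its absolute log2 fold change over 1. Alternative fits with the animal number or the litter as a block used groups 11 and 13 alone. In the litter fit a male without a littermate in the other group adds nothing to a fold change. Its values therefore rest on 5 littermate pairs, without high-dose males 7 and 10 and vehicle males 7 and 9, and differ from the main fit in animals as well as block. The files hold no gene names. Symbols for 1488 of 19004 tested genes (7.83%) come from a supplementary list of the study, and most genes on it were chosen by the study for an effect of F0 treatment in these same samples, so the named genes are not a random draw. Of the 41 marker genes of 9 cell types chosen for a check of the tissue, 5 carried a symbol, and none of the 6 hepatocyte, 5 stellate cell, 3 neutrophil, 5 bile duct or 3 red blood cell markers did. The labelled tissue could therefore not be checked by its own defining markers. Col1a1, Col1a2, Acta2, Tgfb1, Pparg, Lox and Timp1, the usual readouts of fibrosis, carried no symbol either and are not analysed here.

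Between high-dose and vehicle males 4125 of the 19004 tested genes were called (21.7%), 2926 with more RNA (15.4%) and 1199 with less (6.31%) after the high dose. The genes called higher changed more, with a median log2 fold change of 2.02, and 259 of them rose by over 4 on the log2 scale. The genes called lower had a median of -1.49, and 56 of them were below -4. For 2851 of the 12186 genes whose normalized counts averaged over 50 (23.4%), the 7 high-dose and the 7 vehicle males did not overlap. In 9 genes every vehicle male was at 0 and every high-dose male had over 3 counts, and the reverse held for 2 genes. The split of the calls depends on the scaling. With library totals in place of TMM, 6758 genes were called, 93.5% of them higher against 70.9% in the TMM fit, because the median of all genes then lay at 0.73 on the log2 scale and not at 0.06. Directions below are therefore relative to the median gene.

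A few transcripts filled much of a vehicle liver library, and less of a high-dose library. How much of the shift between the scalings they account for was not tested. The 10 genes with the highest mean counts in the vehicle group took between 22.3% and 27.8% of a vehicle library (median 25.1%) and between 14.4% and 19.4% of a high-dose library (median 15.8%). The groups did not overlap, and the means were 24.7% ± 1.82 and 16.4% ± 2.14 (SD, n = 7 each). This difference of -8.35 percentage points had p = 0.000583 in a two-sided exact permutation test with 3432 arrangements, which is the smallest p that this design can give. The vehicle males of cohorts B, C and D, which are not compared here, have the same 10 genes at the top, so choosing the genes there (an alternative added after the data were seen) gives the same values. It held on each of the 4 necropsy dates, with a high-dose against a vehicle mean of 17.8% against 26.6% on the first date, 15.3% against 23.5% on the second, 14.4% against 25.1% on the third (1 male each) and 17.1% against 24.0% on the fourth. Low-dose males lay between them at 22.3% ± 1.60 (SD, n = 7). As shares of the library, 7 of the 10 genes were lower and 3 higher at the high dose. After TMM scaling their log2 fold changes ran from -3.71 to -0.38, and 6 were called. The largest single transcript, ENSRNOG00000002911.5, which the files do not name, took 11.2% ± 1.80 of the counts in vehicle males and 6.07% ± 1.51 in high-dose males (SD, n = 7 each, log2 fold change -1.56, edgeR adjusted p = 2.90e-07). Only Mt-co1, the mitochondrial gene of cytochrome c oxidase subunit 1, carried a symbol, and it did not pass the fold threshold (log2 fold change -0.44 ± 0.16 SE). Its value turned to 0.23 with library totals.

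**Figure D1:**
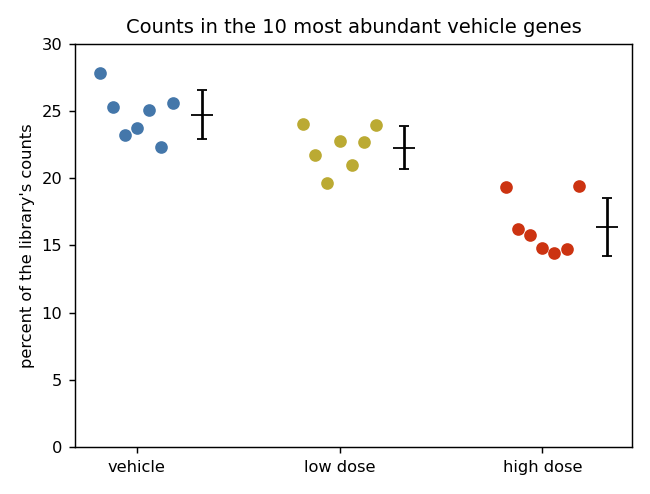
Percent of each library's counts (y axis, from 0) in the 10 genes with the highest mean counts of the vehicle group, for the 7 vehicle, 7 low-dose and 7 high-dose males of cohort A. Points are animals and bars the mean with its SD, and every high-dose male lies below every vehicle male.

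The most abundant genes were more often called lower than higher, and the rarest tested genes the reverse. Abundance was taken as normalized counts per kilobase of transcript in the vehicle males of cohorts B, C and D, which are not part of the comparison. Of the 4537 genes with under 10 normalized counts per kilobase, 34.1% were called higher and 3.46% lower. A gene that is rare in vehicle males could pass the count filter through the treated groups alone and has little room to be called lower, so this split is partly fixed by the filter and gives no support to a trend. Of the 7028 genes between 100 and 1000, 4.84% were called higher and 4.17% lower. Of the 467 genes with over 10000, 1.93% were called higher and 40.5% lower, and their median log2 fold change was -0.76. With library totals the medians from rare to abundant genes were 1.48, 1.003, 0.62, 0.39 and -0.09. Those of the rare genes carry the same limit of the filter, so their order gives no support to a trend either. The called shares of the most abundant genes were then 17.3% higher and 16.5% lower.

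**Figure D2:**
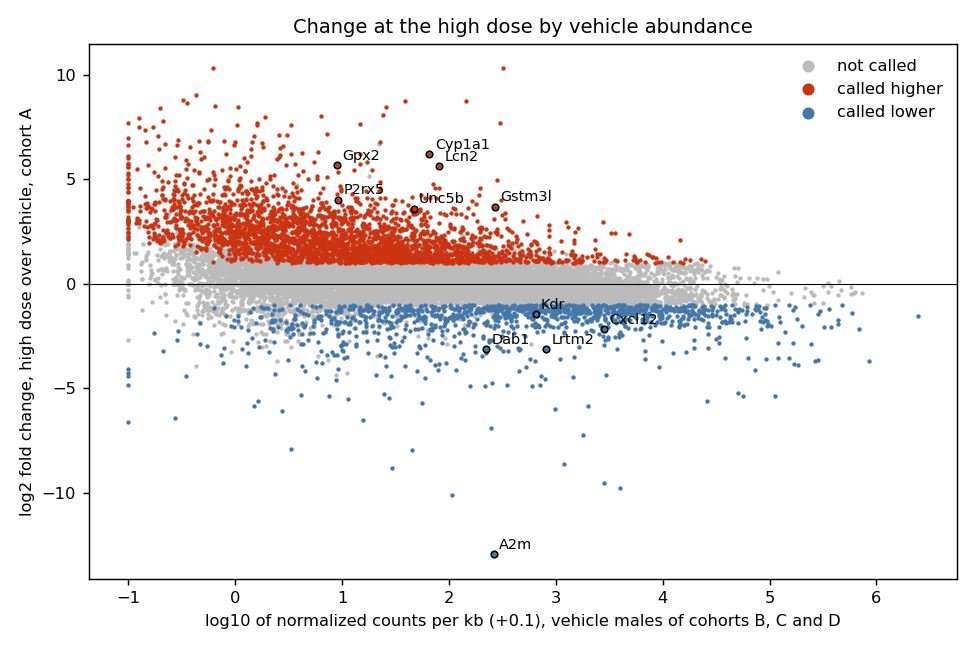
Log2 fold change of the high dose over vehicle in cohort A (y axis) against the log10 of normalized counts per kilobase in vehicle males of cohorts B, C and D (x axis) for 19004 genes, with genes called higher in red, called lower in blue and others in grey. Red points crowd the left and blue points the right, where 40.5% of the genes over 10000 counts per kilobase were called lower; the fitted value of A2m depends on the small count added to a 0.

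Gene lists for liver functions and cell types held 467 genes, of which 45 carried a symbol. Of these 45, 10 were called higher and 8 lower (40% in all, beside 21.7% of the tested genes and 13.3% of the tested genes with a symbol, which is no test because most of these symbols come from a list chosen on these samples). Their median log2 fold change was 0.02, beside 0.06 over the tested genes and -0.07 over those with a symbol. The single lists have 1 to 5 such members, so a count of called members in one of them is a description of these genes and not a result about a cell type or pathway. The lists for fibrillar matrix, stellate cells, fatty acid oxidation, the periportal zone and red blood cells had no member with a symbol. Members are described below by what they do.

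Of the 2 members with a symbol of the cytochrome P450 list, Cyp1a1 was called higher and Cyp1a2 lower. The oxidative stress list had 1, Gpx2, called higher (background 13.3% of genes with a symbol in either direction). Gstm3l and Cyp2c24, which also rose, were picked for their large change without overlap and do not add to these counts. Cyp1a1, a cytochrome P450 that is normally almost silent in liver and is induced through the aryl hydrocarbon receptor, had 0 to 23.8 normalized counts in vehicle males (median 11.8) and 102 to 2502 in high-dose males (median 222), a log2 fold change of 6.18 ± 1.11 (SE, edgeR adjusted p = 4.25e-06). The groups did not overlap, and 2 of the 7 high-dose males stood at 2502 and 1637 while the other 5 lay between 102 and 362. The log2 fold change was 5.51 with the animal number as a block, 5.45 without high-dose male 1, 5.24 without the males of the first date and 7.27 without those of the fourth. Cyp1a2, which is expressed constitutively around the central vein, went the other way: 14660 to 17730 in vehicle males (median 16200) against 2625 to 16120 in high-dose males (median 6130), log2 fold change -1.19 ± 0.38 (SE, adjusted p = 0.00790). The other 6 high-dose males reached 7461 at most, and male 10, at 16120, lay inside the vehicle range. Without that male the log2 fold change was -1.53, and with library totals Cyp1a2 was no longer called (-0.57, edgeR adjusted p = 0.145). Ahr, the receptor itself, had 2628 ± 1244 in vehicle and 1635 ± 310.5 in high-dose males (mean ± SD, n = 7 each) and did not reach the fold threshold (-0.68 with TMM and 0.003 with library totals).
Gpx2, a glutathione peroxidase usually restricted to gut epithelium, had 5 to 22.5 normalized counts in vehicle males (median 15.2) and 19.3 to 1533 in high-dose males (median 426), log2 fold change 5.65 ± 0.77 (SE, adjusted p = 7.17e-09). Again male 10, at 19.3, was the only high-dose male inside the vehicle range. Gstm3l, a glutathione S-transferase gene, rose from a median of 136 (60.5 to 210) to 1679 (762 to 2396) without overlap, log2 fold change 3.69 ± 0.35 (SE, adjusted p = 8.44e-14). Cyp2c24, a further cytochrome P450, had medians of 91.3 (17.5 to 340) and 1386 (745 to 1857), also without overlap (log2 fold change 3.39 ± 0.53, SE, and 3.98 without the second date). These are members of families with similar sequences, and the estimation of the authors could have moved reads between relatives.

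In secreted and acute-phase genes, 1 of the 2 members with a symbol rose and the other fell to 0 counts, beside 13.3% of genes with a symbol called in either direction. Lcn2, lipocalin 2, an iron-siderophore binding protein released by injured hepatocytes and neutrophils, had 32.3 to 153 normalized counts in vehicle males (median 90.0) and 17.8 to 9264 in high-dose males (median 3552), log2 fold change 5.63 ± 0.84 (SE, adjusted p = 6.50e-08). The other 6 high-dose males had at least 1777, and male 10, at 17.8, was below the lowest vehicle male. Without the males of the first date the log2 fold change was 4.91. A2m, the protease inhibitor alpha-2-macroglobulin, was at 0 counts in the 7 high-dose males and at 505 to 1776 normalized counts in the vehicle males (median 751), which is at least 414-fold lower when 3 counts per library are allowed for a 0. In low-dose males it ranged from 0, in 2 of the 7, to 1265. The study's list pairs this identifier with a LOC gene name beside A2m, so the value is uncertain where reads could belong to a near-identical copy.

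Genes of the hepatic lobule and of hepatocyte metabolism moved in both directions. Of the 5 members with a symbol of the pericentral list, 1 was called higher (Rhbg) and 2 lower (Cyp1a2 and Slc1a2), beside 13.3% of genes with a symbol in either direction. Slc1a2, a glutamate transporter of the hepatocytes next to the central vein, had 203 to 464 normalized counts in vehicle males (median 289) and 8.87 to 131 in high-dose males (median 24.4), log2 fold change -2.48 ± 0.43 (SE, adjusted p = 1.97e-06). Rhbg, an ammonium transporter of the same cells, rose from a median of 229 (119 to 264) to 857 (534 to 1227), log2 fold change 2.04 ± 0.35 (SE, adjusted p = 1.50e-06), and neither gene overlapped between the groups. Glul, glutamine synthetase, the classical marker of that innermost layer, was not called: it had 15950 ± 2473 in vehicle and 11700 ± 3288 in high-dose males (mean ± SD, n = 7 each), with 6947 as the mean of the low-dose males, and its log2 fold change was -0.45 with TMM and 0.26 with library totals. Aldh1a1, a retinal dehydrogenase, was not called either (-0.17 ± 0.37, SE, and 0.54 with library totals).
Igfals, the liver-secreted subunit that holds insulin-like growth factors in serum, fell from a median of 11050 (7452 to 13820) to 2783 (1964 to 7359), log2 fold change -1.68 ± 0.29 (SE, adjusted p = 2.55e-06), and Socs3, a feedback inhibitor of cytokine and growth hormone signalling, was not called (0.16 ± 0.33, SE).

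Aldoa, the glycolytic aldolase of muscle and of many dividing or dedifferentiated cells, rose without overlap from 2171 (1555 to 2983) to 4622 (3364 to 6993), log2 fold change 1.09 ± 0.15 (SE, adjusted p = 5.81e-09), and fell short of the fold threshold without high-dose male 1 (0.99) and without the first date (0.93).
None of the 5 members with a symbol of the lipid and cholesterol synthesis list was called (background 13.3%). With library totals 3 were, in a fit that called 35.6% of all tested genes, so these calls say little about the list. Scd2, a fatty acid desaturase outside that list that was chosen after its values were seen, was called higher (1.41). Srebf1, the transcription factor of fatty acid synthesis, had a log2 fold change of 0.78 ± 0.33 (SE, adjusted p = 0.0454), and its value depended on the fit. It passed the threshold without vehicle male 10 (1.03, edgeR adjusted p = 0.0109), without the second date (1.03, adjusted p = 0.0252) and with library totals (1.42). It was 0.58 (adjusted p = 0.154) without high-dose male 10. In groups 11 and 13 alone with the litter as a block it was 0.19 (adjusted p = 0.636). Insig1, a sterol-regulated brake on fatty acid and cholesterol synthesis, had 0.56 ± 0.41 (SE), and 1.23 with library totals. Lpin1, a phosphatidate phosphatase that the study singled out in other comparisons, had 5167 ± 1923 in vehicle and 4387 ± 2376 in high-dose males (mean ± SD, n = 7 each), a difference within their spread (log2 fold change -0.24 ± 0.43, SE, and 0.42 with library totals). Other genes of that kind were not called: Slc10a2, a bile acid transporter (0.86 ± 0.30, SE, adjusted p = 0.0137), Zbtb16, a glucocorticoid-responsive transcription factor (-0.97 ± 0.67), and Acer2, a ceramidase (-0.015 ± 0.23). For Zbtb16, the necropsy date as a block in the fit of all groups gave -1.10 with an edgeR adjusted p of 0.0854. The litter as a block in groups 11 and 13 alone gave -1.43 with 0.0578, and both values pass the thresholds. Library totals gave -0.29 (0.713) and leaving out the first date -0.71 (0.454). Slc10a2 passed them without the males of the second date (1.07) and with library totals (1.53). The amino acid enzyme Tat (0.04) and the ER stress gene Herpud1 (-0.43) did not pass the fold threshold.

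**Figure D3:**
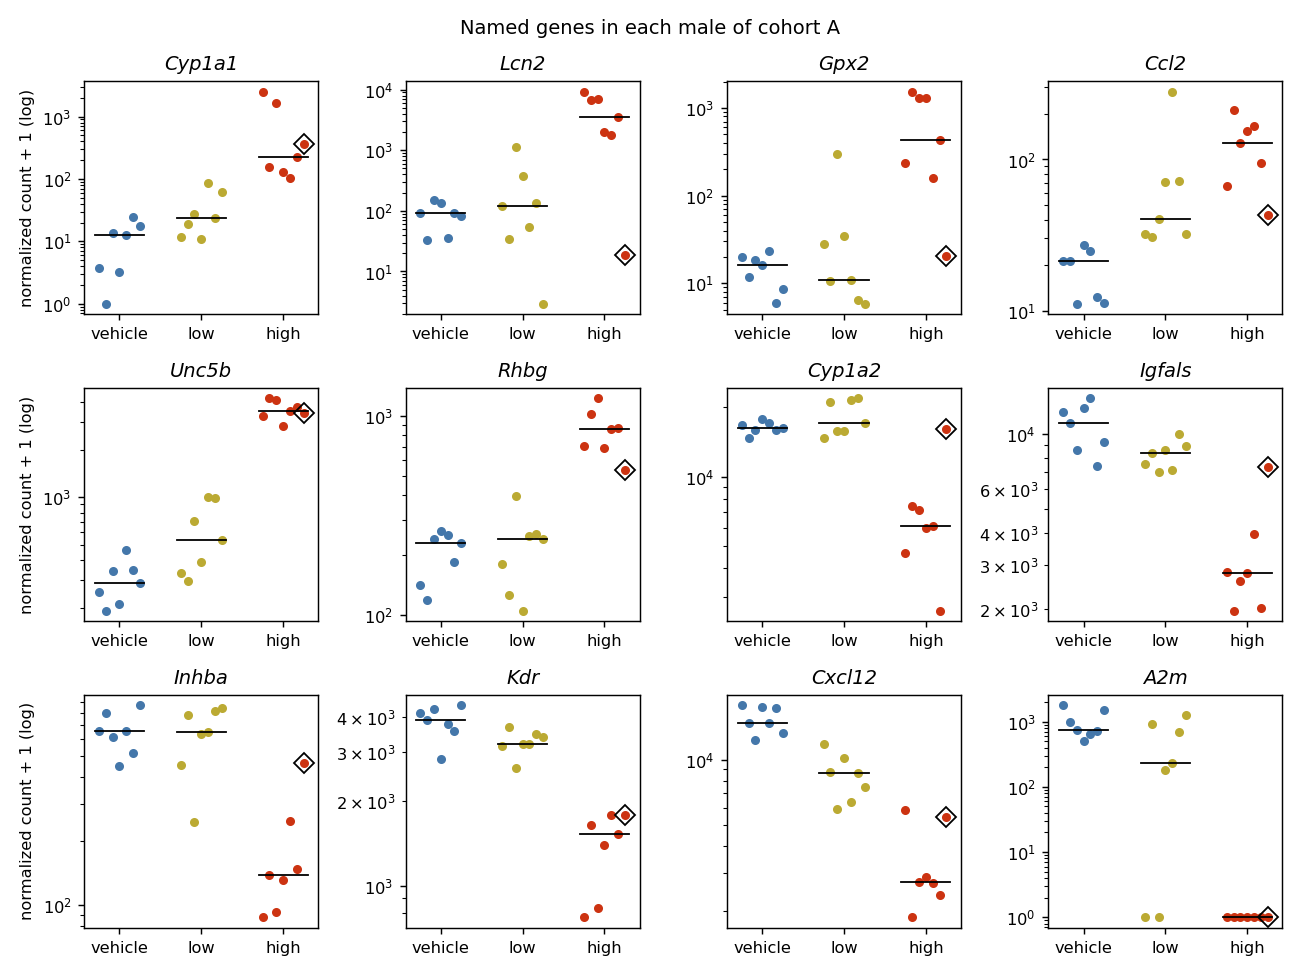
Normalized counts plus 1 (log y axis, a separate scale for each gene) of 12 named genes in each vehicle, low-dose and high-dose male of cohort A, with a line at the group median and an open diamond around high-dose male 10. For Lcn2, Gpx2, Cyp1a2 and Inhba the diamond lies within or below the range of the vehicle males, while for Unc5b, Rhbg and A2m it lies with the other high-dose males.

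Among signalling genes for tissue repair, Tgfb2, a ligand of the TGF-beta family that drives matrix production, rose without overlap from a median of 95.7 (50.0 to 124) to 293 (162 to 365), log2 fold change 1.46 ± 0.30 (SE, adjusted p = 4.65e-05). Its level in the low-dose males, 85.0 on average, lay beside a vehicle mean of 93.1 (not tested). Inhba, the activin A subunit of the same family, fell from 654 (447 to 868) to 137 (86.6 to 465), log2 fold change -1.80 ± 0.35 (SE, adjusted p = 1.44e-05). The low-dose mean was 631 and the vehicle mean 651 (not tested). Only high-dose male 10, at 465, reached the vehicle range. Without that male the log2 fold change was -2.22, and with the litter as a block, a fit to which it adds nothing, -2.49. Ski, an intracellular inhibitor of the pathway, was not called (-0.07 ± 0.15, SE, and 0.62 with library totals). Plau, the urokinase plasminogen activator that starts proteolysis of provisional matrix, rose from 286 (215 to 335) to 462 (403 to 998) without overlap. Its log2 fold change of 1.04 ± 0.22 (SE, edgeR adjusted p = 6.78e-05) stood at the threshold and was under it with the animal number as a block (0.99), without the second date (0.94), and without vehicle male 1 (0.99), high-dose male 9 (0.97) or high-dose male 5 (0.87). Adamts1, a matrix protease, was not called (0.10 ± 0.25, SE).

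Of the 3 members with a symbol of the chemokine and cytokine list, 1 was called higher and 1 lower (background 13.3% of genes with a symbol in either direction). Ccl2, the chemokine that recruits monocytes, rose from a median of 20.2 (10.1 to 26.1) to 127 (42.2 to 213) without overlap, log2 fold change 2.81 ± 0.70 (SE, adjusted p = 0.000623). The low-dose mean of 78.8 was raised by male 7, at 280, and the low-dose median was 39.2. Cxcl12, a chemokine of sinusoidal and stromal cells that retains leukocytes, fell without overlap from 14800 (12290 to 17840) to 2703 (1864 to 5861), log2 fold change -2.18 ± 0.24 (SE, adjusted p = 1.76e-11), with a low-dose mean of 8464 between the other means. Il17ra, the receptor of interleukin 17, had a small difference below the fold threshold (-0.35 ± 0.09, SE, and 0.33 with library totals). None of the 4 members with a symbol of the macrophage list was called, beside a background of 13.3%, so this count says little. Adgre1, the F4/80 antigen, had 1166 ± 305 in vehicle and 1179 ± 430 in high-dose males, Cd163, a scavenger receptor of resident macrophages, 2710 ± 404 and 2089 ± 292, Cd14, a lipopolysaccharide co-receptor, 2123 ± 408 and 3018 ± 791, and Ctss, a lysosomal protease, 2248 ± 423 and 2751 ± 388 (mean ± SD, n = 7 each). The log2 fold change of Cd163 was -0.38 with TMM and 0.32 with library totals, and that of Cd14 0.51 and 1.19, the latter past the thresholds. Cd4, which in rats is carried by T cells and by macrophages, was higher without overlap, at 1405 to 3208 against 995 to 1402, but its log2 fold change of 0.86 ± 0.17 (SE, adjusted p = 1.18e-05) stayed under the threshold, which it passed with the litter as a block (1.01) and with library totals (1.56).

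Of the 4 members with a symbol of the endothelial list, 1 was called, lower, beside 13.3% of genes with a symbol in either direction. Genes outside that list that endothelial cells also express were picked for their change and do not add to this count. Of these, Unc5b was higher (3.59) and Fzd4 lower (-1.98), and Efnb2 was lower (-1.49) but not called with library totals (-0.81). Kdr, the main receptor for vascular endothelial growth factor, fell without overlap from 3907 (2824 to 4407) to 1524 (770 to 1793), log2 fold change -1.465 ± 0.205 (SE, adjusted p = 1.42e-08), and was no longer past the fold threshold with library totals (-0.79). Its ligand Vegfa was also lower without overlap, at 2143 to 3472 against 3954 to 5422, but with -0.68 ± 0.14 (SE, adjusted p = 4.84e-05) was not called, and with library totals the value was -0.016. Ehd3, an endocytic gene of sinusoidal endothelium, had a log2 fold change of -0.94 ± 0.19 (SE), and passed the threshold with the litter as a block (-1.01, edgeR adjusted p = 0.000147) and without high-dose male 10 (-1.002), while library totals gave -0.27 (adjusted p = 0.125). Stab1, a scavenger receptor of the same cells, had 0.28 ± 0.23. Without high-dose male 1, whose 2109 counts stood far above the other 6 (569 to 781), the value of Stab1 was -0.11. The kidney markers Nphs1 and Lrp2 were not called (-0.21 and 0.33), although Lrp2 was with library totals (1.04), and Nphs1 stayed at 55.4 and 48.0 counts on average.

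Of the cell cycle list 2 genes carried a symbol. Ccne1, cyclin E1, which drives entry into S phase, had 12.6 to 71.3 normalized counts in vehicle males (median 40) and 54.1 to 179 in high-dose males (median 107), log2 fold change 1.70 ± 0.36 (SE, adjusted p = 8.52e-05), with an overlap of the lowest 2 high-dose males and the highest vehicle male, and 2.32 with the litter as a block. Cdkn1a, the p21 inhibitor of the cell cycle and a p53 target, was not called (2539 ± 1333 against 2318 ± 932, mean ± SD, n = 7 each, log2 fold change -0.13 with TMM and 0.53 with library totals). Gdf15, a stress-induced cytokine that is also a p53 target, rose from 17.5 (5.38 to 55.5) to 79.3 (37.2 to 144), log2 fold change 2.00 ± 0.50 (SE, adjusted p = 0.000733), and the groups overlapped. Without the second date it was 2.61. The 250 bases before the start of Ccne1, Cdkn1a and Lcn2 are shown to set the promoter of a gene that rose 3.24-fold beside that of one that was not called and that of a gene that rose 49.6-fold. They come from RefSeq, build GRCr8, and are the members with a symbol of the cell cycle and plasma protein lists, apart from A2m.
Ccne1 (chr1:99927910-99928159, minus strand): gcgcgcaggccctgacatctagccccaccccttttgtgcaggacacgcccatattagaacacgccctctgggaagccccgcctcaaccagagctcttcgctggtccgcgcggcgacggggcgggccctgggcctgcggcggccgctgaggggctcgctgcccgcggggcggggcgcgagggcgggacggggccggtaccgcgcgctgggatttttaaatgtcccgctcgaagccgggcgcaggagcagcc
Cdkn1a (chr20:7150682-7150931, plus strand): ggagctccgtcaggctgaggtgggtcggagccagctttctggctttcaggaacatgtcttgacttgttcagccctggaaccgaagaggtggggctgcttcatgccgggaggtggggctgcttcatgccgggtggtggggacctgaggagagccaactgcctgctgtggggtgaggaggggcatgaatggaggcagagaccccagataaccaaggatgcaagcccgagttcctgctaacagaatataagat
Lcn2 (chr3:36081781-36082030, minus strand): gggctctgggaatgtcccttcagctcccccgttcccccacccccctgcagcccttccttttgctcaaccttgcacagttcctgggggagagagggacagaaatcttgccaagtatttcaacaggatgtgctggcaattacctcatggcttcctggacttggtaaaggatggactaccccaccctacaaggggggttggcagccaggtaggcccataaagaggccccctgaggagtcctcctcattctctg
On both strands 5 short motifs were searched, namely CCAAT (the NF-Y box), TTTGAA (the CHR element of cell cycle genes), TATAAA (the TATA box), GTTAAT (found in promoters of liver genes) and AGGTCA (the core of nuclear receptor sites). They would stand in capitals, but none of them lies in these windows, which says only that these letters are not there. Over the 24206 promoters of the same length in that table, 34.4% hold CCAAT and 16.1% TTTGAA, and among the 18 promoters of the cell cycle list 13 hold the first and 7 the second, whether or not the gene was measured under a name here. AGGTCA was found in 6 of 13 plasma protein promoters and in 13.5% of all, GTTAAT in 3 of 13 and in 6.56% of all, and TATAAA in 1 of 13 and in 13.3% of all. These shares describe letters and were not tested.

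Among 128 called genes with a symbol, a mean over 50 counts and no overlap of the 14 males, the 5 highest and 5 lowest log2 fold changes were taken. They included those of A2m, Cyp1a1, Gstm3l and Cyp2c24. Unc5b, a netrin receptor of endothelial and epithelial cells, rose from a median of 285 (191 to 460) to 3521 (2827 to 4208), log2 fold change 3.59 ± 0.28 (SE, adjusted p = 2.14e-17). Its high-dose males lay close together, and the low-dose mean was 606. P2rx5, an ATP-gated ion channel, rose from 6.52 (1.27 to 14.8) to 121 (22.2 to 202), log2 fold change 4.01 ± 0.96 (SE, adjusted p = 0.000418). On the lower side stood Fras1, an extracellular matrix protein of basement membranes, with medians of 95.6 (43.5 to 347) and 11.9 (2.72 to 33.4) and a log2 fold change of -3.42 ± 0.62 (SE, adjusted p = 4.61e-06). Edar, the ectodysplasin receptor, fell from 348 (323 to 801) to 56.0 (8.66 to 64.5), log2 fold change -3.37 ± 0.49 (SE, adjusted p = 3.24e-08). Lrtm2, a leucine-rich repeat membrane protein, fell from 2429 (1442 to 3569) to 183 (105 to 571), and Dab1, an adaptor of reelin signalling, from 893 (523 to 1156) to 61.7 (23.5 to 250). Their log2 fold changes were -3.13 ± 0.46 and -3.12 ± 0.45 (SE). With the litter as a block the value of Dab1 was -4.00 and that of Edar -3.96. Low-dose means of these 4 genes lay between the vehicle and the high-dose means, at 96.1, 266, 1801 and 554. Without a symbol, ENSRNOG00000008050.4 fell from 2422 to 5283 normalized counts in vehicle males to at most 28.2 in a high-dose male (median 1.37), and ENSRNOG00000005954.3, at no more than 1 read count in any vehicle male, reached 83.03 to 549 in the high-dose males.

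The high-dose males differed among themselves more than the vehicle males did. Over the 12186 genes with a mean over 50 counts, the SD of log2 normalized counts had a median of 0.28 in the high-dose and 0.23 in the vehicle group, and it was larger at the high dose for 61.8% of the genes. To place each male on genes called in other animals, 1012 genes called higher and 412 called lower in each of cohorts B, C and D were averaged. These genes also had to average over 50 normalized counts in the vehicle and high-dose males of cohort A. A gene rare in vehicle males could pass this through the high-dose males, so the choice is not independent of the males placed. The mean log2 level of the 1012 genes was 6.16 to 6.45 in vehicle males and 7.76 to 8.70 in high-dose males, and that of the 412 genes was 11.55 to 11.73 and 8.83 to 10.44. High-dose males 10 and 7 lay nearest the vehicle group, at 7.76 and 7.94 for the first set and 10.44 and 9.88 for the second, while the other 5 lay at 8.30 to 8.70 and 8.83 to 9.31. Of these 1424 genes, 15.7% lay inside the vehicle range in male 10 and 12.2% in male 7, against 1.90% to 4.63% in the other 5. In the 7 low-dose males the share was 16.6% to 52.6%, and low-dose male 4, at 7.93 for the first set, overlapped the high-dose range there. Male 10 did not lie with the vehicle males throughout, since it had no A2m count, 20 normalized counts of Slc1a2 and 3404 of Unc5b. Leaving it out gave 4441 called genes in place of 4125, and leaving out male 9 gave 3934, the lowest number over the 14 libraries.

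**Figure D4:**
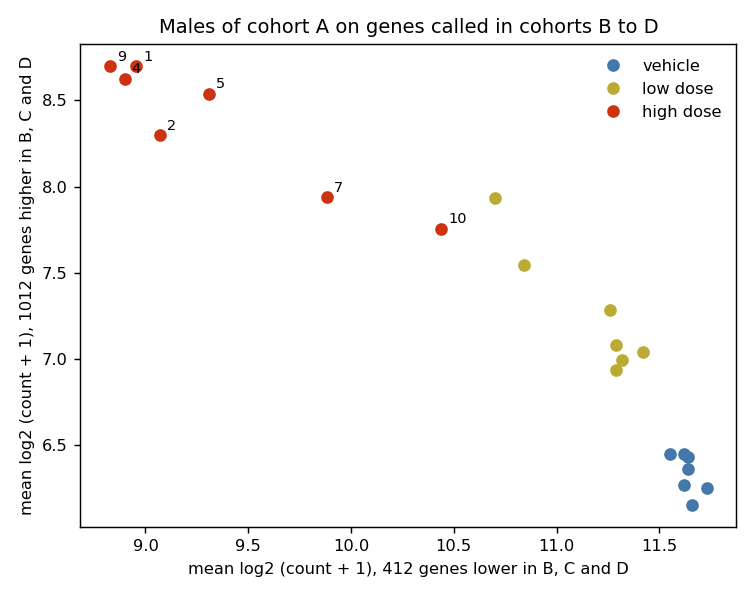
Mean log2 of normalized counts plus 1 over 1012 genes called higher (y axis) and over 412 genes called lower (x axis) at the high dose in cohorts B, C and D, for each vehicle, low-dose and high-dose male of cohort A. These genes also averaged over 50 normalized counts in the vehicle and high-dose males shown. Numbers are high-dose males; males 7 and 10 lie nearest the low-dose and vehicle males.

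The dates and litters split the same 14 males on which the genes were called, so their agreement describes the calls and gives them no further support. Of the 2082 called genes with a mean over 50 counts, 2001 (96.1%) had the direction of the fit on each of the 4 necropsy dates, and 2010 (96.5%) in each of the 5 littermate pairs. Over the 12186 tested genes with such a mean the shares were 58.1% and 55.4%. The median log2 ratio of the called genes over 50 counts was 1.69 for those called higher and -1.53 for those called lower on the first date, 1.74 and -1.59 on the second, 1.28 and -1.22 on the third, where 1 high-dose male, number 7, faced 1 vehicle male, and 1.59 and -1.23 on the fourth.

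The same dose comparison in cohorts B, C and D rests on other animals. Of the 4125 called genes, 97.4%, 96.2% and 96.3% had the same direction in B, C and D, beside 83.7%, 81.8% and 81.0% of all tested genes. In all 3 cohorts the direction was the same for 3837 (93.0%), beside 67.3% of the tested genes. The other 288 were mostly rare transcripts with a median of 2.43 normalized counts, and only 23 of the 2082 called genes over 50 counts were among them. In these cohorts 79.9%, 69.0% and 69.0% of the 4125 genes were themselves called in the same direction, and 7, 13 and 6 in the opposite one. A test of the difference between the dose effect of cohort A and that of each other cohort gave 0 genes at an edgeR adjusted p under 0.1 (lowest 0.166), with 1184, 878 and 1567 genes at an unadjusted p under 0.05 for B, C and D.
Log2 fold changes of some named genes in the single cohorts were as follows. Lcn2 had log2 fold changes of 5.97, 5.76 and 5.11 in B, C and D beside 5.63 in A, Gpx2 5.64, 4.79 and 5.87, Unc5b 2.91, 3.49 and 2.85, and Slc1a2 -2.91, -3.20 and -2.81. Cyp1a1 reached 4.77 and 4.35 in C and D but -0.06 in B, and this difference from cohort A (6.24, unadjusted p = 1.87e-05) had an edgeR adjusted p of 0.166. P2rx5 was at 1.05 in B against 3.35 and 3.25 in C and D, and Gdf15 at 1.23, 0.31 and 0.53 against 2.00 in A. The difference of P2rx5 between A and B had an edgeR adjusted p of 0.684. Those of Gdf15 between A and B, C and D had 0.976, 0.962 and 0.58. The A2m counts gave -12.99 in B, -3.27 in C and -5.72 in D, fitted values that for cohorts A and B depend on the small count added to a 0. The differences of A2m from C and D had unadjusted p of 0.00106 and 0.0266 and adjusted p of 0.726 and 0.563. A2m is named through a list that the study mostly chose for an effect of grandsire treatment in these samples. C and D are the cohorts with a treated grandsire, so these p-values may not be independent of that choice.

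**Figure D5:**
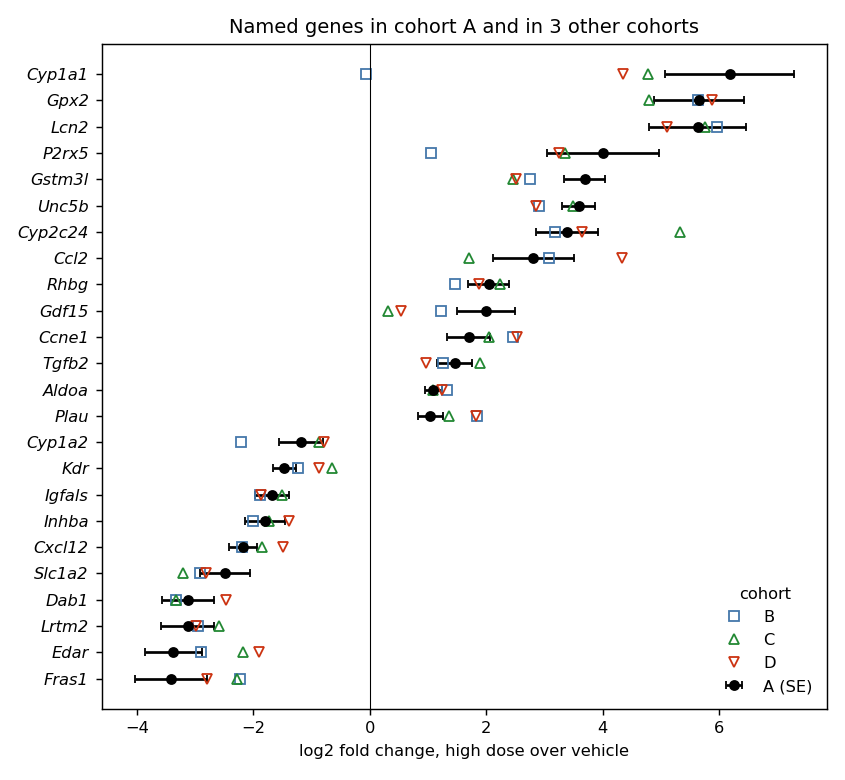
Log2 fold change of the high dose over vehicle (x axis) for the named called genes other than A2m in cohort A (black points with SE) and in cohorts B, C and D (open symbols). Points lie on the same side of 0 in the 4 cohorts except for Cyp1a1 in cohort B, at -0.06.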

How the data were processed

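Per the labels and the study's methods, the authors made stranded polyA libraries, estimated transcript abundance with Salmon 0.14.0 against the Ensembl rat transcriptome and summed it to genes. They deposited estimated counts, rounded to whole numbers, for 31998 gene identifiers, with a table of transcript lengths. A library of the compared groups held 34935482 to 50930971 counts. Genes were kept where the counts of any of the 12 liver groups summed to over 10 (19004).

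Counts were tested with edgeR 4.0.16 (TMM, quasi-likelihood F test, limma 3.58.1, R 4.3.3) in a fit of the 12 liver groups, and DESeq2 1.42.0 was an alternative. Calls required a Benjamini-Hochberg adjusted p below 0.1 together with a log2 fold change beyond 1 in either direction. Log levels were taken after adding a pseudocount of 1.

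The animals, gene lists and named genes were chosen with earlier results of these data known. Named genes were those the study singled out, up to 4 called members of each of 26 lists, the 5 highest and 5 lowest called genes with a symbol, a mean over 50 and no overlap between the groups, and the 10 most abundant genes. Genes in the last part of the text were picked after their values were seen. Animals that share a number shared a necropsy date in the study's records. A few named genes are not reported here. Scripts were tested on simulated data.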

Additional observations from a re-analysis of the deposited data

Results flagged for a closer look

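In 13 of 145 groups of named values (8.97%), the highest or lowest of the 7 males lay farther from the rest than Dixon's 95% limit. Chance gives about 1 in 20 for independent, normally distributed values. These are counts without a log, and the same males recur across genes, so that rate is no yardstick here. High-dose male 10 was the highest for Inhba (465.2, next 246.1), Cyp1a2 (16120, next 7461), Igfals (7359, next 3989) and Cfb, complement factor B (367.4, next 233.8), 4 genes that fell at the high dose. High-dose male 7 was the lowest for Ahr (992.3, next 1550) and the highest for Adgre1 (2144, next 1111), and high-dose male 1 was the highest for Stab1 (2109, next 780.9).

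In the vehicle group, male 10 was the highest for Lrp2 (1220, next 632.7), Srebf1 (9636, next 5077) and Edar (800.7, next 447.5). Vehicle male 5 was the highest for Gdf15 (55.45, next 22.81) and for the glyoxylate reductase gene Grhpr (30850, next 21690), and vehicle male 2 for Cfb (861.6, next 637.3). All values are normalized counts.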

How the results depend on the processing

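Against 4125 called genes, DESeq2 gave 3951, transcript length offsets 4131, DESeq2 size factors 4152, the fit of the 2 groups alone 4112, an adjusted p under 0.05 gave 3806, and leaving out 1 library 3934 to 4441. Library totals gave 6758, 93.5% of them higher. Without a minimum fold change 9358 were called (49.2% of the tested genes), 55.4% higher, and 31 of the 45 list members. In fits of the 2 groups alone (17829 genes tested), the animal number as a block gave 3988 genes and the litter 4492, beside 4112 without a block. The litter fit rests on the littermate pairs only. The date as a block in the fit of all groups gave 4204. Same-numbered males correlated in their deviations from the group means by -0.119 to 0.207 over 12200 genes (0.0932 to 0.207 for numbers 1, 2, 4 and 5, which are littermates, and -0.119 to 0.0165 for the others), so the numbers did not pair all males by this measure, although the study's records give each number a shared date.

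None of the 45 called genes reported here changed direction in 31 alternatives, and 2 (Plau and Aldoa) lost the call under settings other than library totals. Genes that were not called turned as follows. With library totals the values were Lpin1 0.418, Acer2 0.671, Ski 0.615, Cdkn1a 0.529, Il17ra 0.326, Ahr 0.003, Nphs1 0.485, Cd163 0.322, Glul 0.261, Aldh1a1 0.543, Herpud1 0.241 and Mt-co1 0.233. Acer2, at -0.015, was 0.006 with DESeq2 or its size factors, 0.027 with DESeq2 and lengths, 0.008 with length offsets, 0.021 without a filter, 0.005 with the replicate block and 0.134 with the litter block, where Adgre1 was -0.082 and Aldh1a1 0.058. Without the first date Acer2 was 0.007, Ski 0.054, Adamts1 -0.031, Stab1 -0.078 and Tat -0.172. Without the second, Acer2 was 0.051 and Cdkn1a 0.18. Without the third, Acer2 was 0.088, Ski 0.027, Adgre1 -0.051 and Tat -0.005. Leaving out 1 library gave Acer2 -0.073 to 0.067, Adamts1 -0.001 to 0.221, Adgre1 -0.177 to 0.144, Cdkn1a -0.295 to 0.127, Ski -0.111 to 0.004, Stab1 -0.107 to 0.384 and Tat -0.1 to 0.22. The cause of these turns was not tested, apart from the shift of all genes by the library totals. The 288 called genes whose direction differed in another cohort had a median of 2.43 counts, and the part of depth in this was not tested.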

Other observations

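Further genes with a symbol, picked after their values were seen, were called and did not overlap between the groups, as was the case when they were picked. Ddr1, a collagen receptor kinase, rose from a median of 67.3 normalized counts (34.2 to 100.0) to 379 (160 to 873), log2 fold change 2.84 ± 0.57 (SE, edgeR adjusted p = 3.22e-05), but in cohort D the value was 0.66. Ogn, a small proteoglycan of connective tissue, rose from 361 (197.5 to 479.5) to 968 (504.5 to 1467), and S100a6, a calcium-binding protein of proliferating and mesenchymal cells, from 87.5 (53.2 to 182.5) to 551 (301.5 to 636). Wee1, the kinase that holds back mitosis, rose from 200 (130.5 to 301.5) to 633 (308 to 771), and Id1, a transcriptional regulator that responds to bone morphogenetic proteins, from 55.2 (43.1 to 94.6) to 159 (122 to 460). Also higher were Psat1, an enzyme of serine synthesis (log2 fold change 2.55 ± 0.31, SE), Akr7a3, an aldehyde reductase (2.10 ± 0.33), Alpl, tissue-nonspecific alkaline phosphatase (1.68 ± 0.30), and Scd2, a fatty acid desaturase (1.41 ± 0.18). Alpl, like Ddr1, was under the fold threshold in cohort D (0.72), and the other genes of this paragraph passed it in B, C and D.

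Other genes picked in the same way were lower. Fzd4, a Wnt receptor of endothelium, fell from 3461 (2456 to 5374) to 964 (718 to 1123), log2 fold change -1.98 ± 0.22 (SE, edgeR adjusted p = 2.26e-11). Il6r, the interleukin 6 receptor, fell from 10060 (5582 to 11700) to 2820 (1507 to 5378), and Il33, an alarmin cytokine, from 3754 (2317 to 5878) to 1088 (675 to 1410). The insulin signalling genes Irs1 and Foxo1 had log2 fold changes of -1.27 ± 0.18 and -1.20 ± 0.26 (SE), and the ligand Efnb2, an ephrin of arteries, -1.49 ± 0.17. Also lower were Lrp1, an endocytic receptor (-1.34 ± 0.22), Grhpr (-1.34 ± 0.19), Cfb (-1.40 ± 0.18), Nampt, an enzyme of NAD synthesis (-1.49 ± 0.26), and Slc19a2, a thiamine transporter (-1.58 ± 0.20). With library totals Il6r, Irs1, Foxo1, Efnb2, Lrp1, Grhpr, Cfb, Nampt and Slc19a2 were no longer called, while Fzd4 and Il33 were. In cohort D, Il33 (-0.87), Nampt (-0.82), Irs1 (-0.97) and Foxo1 (-0.95) were short of the fold threshold. In cohort C this held for Irs1 (-0.51), Foxo1 (-0.705) and Lrp1 (-0.705). The other genes of this paragraph passed it in B, C and D.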
